A study of Mus musculus with 18 samples.

Results

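The genes described here are the 6 peroxiredoxins (Prdx1 to Prdx6), thioredoxin (Txn1), its cytosolic reductase (Txnrd1), its inhibitor (Txnip) and sulfiredoxin (Srxn1). They were found by their symbols in the deposited expression table, and all 10 of 10 were present among the 53715 genes with counts. TPM is a read count divided by gene length and scaled so that every library has the same total. Bulk RNA sequencing had been done on mouse oocytes of 3 stages, namely primordial follicle oocytes, primary follicle oocytes and oocytes at metaphase II (MII). Every stage had 3 sham libraries and 3 libraries labelled NTY, a name that the labels do not explain, which gave 6 groups and 18 libraries. All libraries came from mice of a C57Bl/6j x CBA/J cross and were marked as in vivo, with no further treatment listed and no age given. By the labelled protocol, microdissected cells were amplified from very little RNA before a capture library was made, and the RNA of several caps was pooled by stage, whereas collected oocytes went into Smart-seq II libraries. The 12 primordial and primary libraries were taken as the microdissected ones and the 6 MII libraries as collected oocytes. Between these sets a difference of stage cannot be told apart from one of method, and no test was made. Nothing in the labels says that the 3 libraries of a group came from separate animals. The p-values therefore measure a spread between libraries, partly shared over genes, and not one known to be between animals.

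Peroxiredoxins reduce hydrogen peroxide and organic peroxides through a reactive cysteine. The oxidised enzyme is returned to its reduced form by thioredoxin, which thioredoxin reductase recharges with electrons from NADPH. A peroxiredoxin whose cysteine has been oxidised too far is restored by sulfiredoxin, and Txnip binds reduced thioredoxin and holds it inactive. Oocytes are long-lived cells with many mitochondria, and their quality is sensitive to oxidative damage.

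The sequence before the transcription start is shown for 3 genes that span the measured range, namely Prdx1 and Txnip, which led the group at every stage, and Srxn1, which was at or near 0. Each run gives the 250 bases before the start in RefSeq (GRCm38.p6, plus strand), read 5′ to 3′, at chr4:116685349-116685598 for Prdx1, chr2:152105274-152105523 for Srxn1 and chr3:96557707-96557956 for Txnip. Capitals mark matches to searched motifs: in Prdx1 and Srxn1 the extended element TGANTCAGC on either strand, which in Prdx1 coincides with the antioxidant response element core TGACNNNGC, and in Txnip the letters CACGAG repeated after 5 bases.
Prdx1: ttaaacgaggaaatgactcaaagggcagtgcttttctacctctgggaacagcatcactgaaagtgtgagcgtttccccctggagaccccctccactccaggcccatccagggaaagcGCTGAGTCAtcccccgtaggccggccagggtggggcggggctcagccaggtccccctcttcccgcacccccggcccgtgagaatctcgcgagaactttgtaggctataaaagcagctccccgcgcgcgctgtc
Srxn1: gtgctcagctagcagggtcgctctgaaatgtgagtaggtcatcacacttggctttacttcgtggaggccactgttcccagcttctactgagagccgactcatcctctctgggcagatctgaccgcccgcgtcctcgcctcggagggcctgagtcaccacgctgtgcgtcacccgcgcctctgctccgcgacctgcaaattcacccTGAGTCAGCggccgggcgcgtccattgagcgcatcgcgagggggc
Txnip: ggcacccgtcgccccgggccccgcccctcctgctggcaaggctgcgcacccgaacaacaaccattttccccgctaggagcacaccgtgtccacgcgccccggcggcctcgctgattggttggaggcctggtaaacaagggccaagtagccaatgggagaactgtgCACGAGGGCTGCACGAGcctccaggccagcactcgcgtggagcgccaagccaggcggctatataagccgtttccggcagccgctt
The antioxidant response element, bound by Nrf2 with small Maf proteins, is known from many genes of this system, and a pair of CACGAG-like boxes is known as the carbohydrate response element that makes Txnip respond to glucose. The core TGACNNNGC was found in 12.4% of 32851 promoter windows of 300 bases on either strand, and TGANTCAGC in 1.19%. The paired CACGAG was found in 1 window of 32851, that of Txnip. TGANTCAGC and the paired CACGAG were added to the search after these sequences had been read, so their presence here is a description only. The promoter table used here has no entry for Prdx6, which was not searched. Of the other genes, the core TGACNNNGC also occurred in a second Txnrd1 promoter 92 bases before its start and in Srxn1 29 bases after its start, and the E-box CACGTG, present in 7.15% of windows, occurred in Prdx4 52 bases before its start.

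Total counts were 15149564 to 29205503 in the 12 microdissected libraries and 8652089 to 9978830 in the 6 MII libraries, yet 4244 to 10241 genes reached 10 counts in the former and 10711 to 13191 in the latter. The 15 genes of oocyte growth fixed as markers (zona pellucida and maternal effect genes among them) summed to 14400 to 27300 TPM in MII libraries. They summed to 4.17 to 1200 TPM in the microdissected libraries, where 15 granulosa cell markers had a median sum of 1820 TPM and 6 stroma markers one of 1400 TPM. The 8 early oocyte markers (Ddx4, Dazl, Kit and Foxo3 among them) differed less, with a median sum of 942 TPM (384 to 1580) in microdissected libraries. In MII libraries it was 1300 TPM (919 to 1450). By gene the medians went both ways. Ddx4, Dazl, Nobox and Kit were higher in MII libraries (303, 592, 207 and 22.9 TPM against 56.2, 110, 3.39 and 20.1). Foxo3, Lhx8, Figla and Sohlh1 were higher in microdissected libraries (376, 40.8, 1.67 and 0.546 TPM against 78.3, 26.2, 1.27 and 0). The sums therefore do not show that these genes were read alike in both sets. The microdissected libraries thus held RNA of genes that mark somatic cells beside RNA of early oocyte genes. Fewer oocytes, less RNA per oocyte and the stage itself cannot be told apart in the lower oocyte growth sums. One library stood apart: in primordial NTY replicate 3, 11 of the 15 oocyte growth genes had 3 counts or fewer. Its early oocyte markers summed to 1580 TPM, the highest sum of that list, although 4 of the 8 had 3 counts or fewer. Foxo3 alone reached 1580 TPM in the microdissected libraries. Values without primordial NTY replicate 3 are given beside the fitted results and means that this library moves most.

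Prdx1, a cytosolic enzyme of the family, was the only peroxiredoxin read in every one of the 18 libraries at a high level. Its level was 505.7, 266.4 and 286.2 TPM in the primordial sham libraries and 93.4, 171.4 and 170.6 TPM in the primordial NTY libraries, in the order of the replicates. Among primary follicle oocytes it was 544.8, 270.5 and 272.6 TPM in sham and 192.8, 176.0 and 251.1 TPM in NTY. At both of these stages all 3 NTY libraries lay below all 3 sham libraries in TPM. In MII oocytes it was 296.9, 414.7 and 564.9 TPM in sham and 491.2, 461.1 and 296.6 TPM in NTY, and these ranges overlapped almost completely.

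Txnip, the inhibitor of thioredoxin, was the other gene of high level, with a median of 388.5 TPM in microdissected and 404.9 TPM in MII libraries. It was at 682.9, 1211 and 220.8 TPM in primordial sham and at 192.5, 302.9 and 0.853 TPM in primordial NTY. The primary sham libraries held 597.0, 232.7 and 249.5 TPM and the primary NTY libraries 474.2, 1284 and 519.1 TPM. The lowest value belonged to primordial NTY replicate 3, with 21 counts against 4031 or more in each of the other 17 libraries except for MII sham replicate 1 with 2020. In MII oocytes Txnip was at 153.1, 383.2 and 445.9 TPM in sham and at 425.3, 511.9 and 384.5 TPM in NTY. Over the 12 microdissected libraries the coefficient of variation was 80.4% for Txnip and 50.2% for Prdx1.

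**Figure D1:**
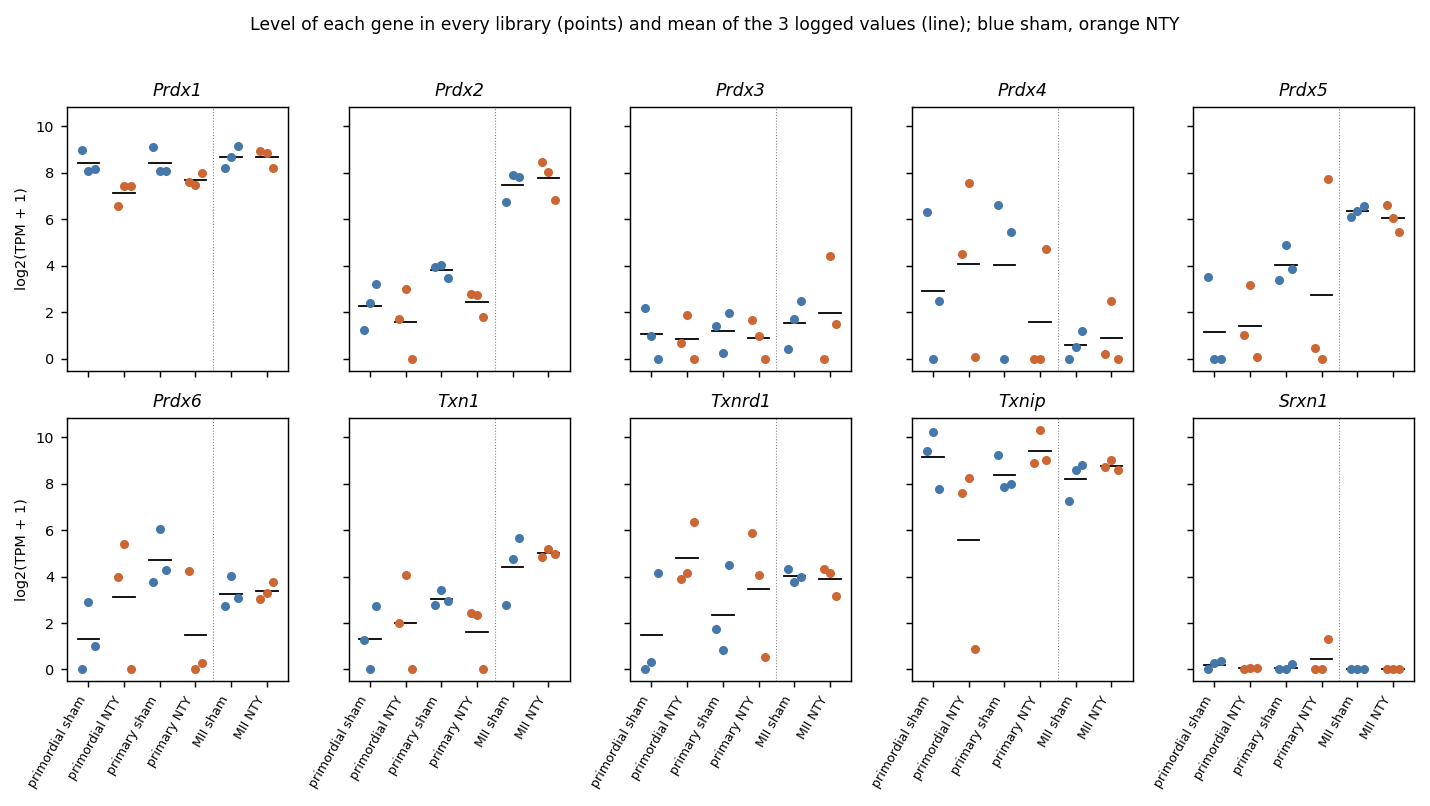
Level of the 10 genes as log2(TPM + 1) on the vertical axis, by group on the horizontal axis, with a point for each library and a line at the mean of the 3 logged values. Prdx1 and Txnip sit at the top in nearly all libraries, Prdx2 stands higher in all 6 MII libraries than in any of the 12 microdissected ones, and Srxn1 lies at or near 0 throughout.

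Prdx2, another cytosolic enzyme, was the gene whose 6 MII libraries all lay above all 12 microdissected libraries in TPM. In primordial follicle oocytes it was at 1.32, 4.24 and 8.30 TPM in sham and at 2.25, 7.07 and 0 TPM in NTY. The primary sham libraries held 14.6, 15.6 and 10.03 TPM and the primary NTY libraries 5.82, 5.595 and 2.50 TPM, so that all 3 NTY libraries were below all 3 sham libraries. In MII oocytes it was at 106.9, 238.7 and 226.6 TPM in sham and at 356.1, 258.6 and 111.4 TPM in NTY. The median over MII libraries was 232.7 TPM against 5.71 TPM over microdissected libraries, a 40.8-fold difference in level that was not tested because the library method differs. Red blood cells are rich in Prdx2 protein. The 6 erythrocyte markers summed to a median of 0.182 TPM in the microdissected libraries and to 174 TPM in primary sham replicate 1, where Prdx2 was at 14.6 TPM. That sum was at the level of Hba-a1 alone (up to 174 TPM), with 5 of the 6 markers at 3 counts or fewer. Hbb-bt, Alas2 and Slc4a1 were at 0 TPM in every microdissected library. The list was therefore not read as a measure of erythrocyte RNA, and the part of these markers in the Prdx2 level was not tested.

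The mitochondrial Prdx3 was low everywhere. It had 0 to 34 counts in the microdissected libraries, and in MII oocytes it was at 0.320, 2.31 and 4.57 TPM in sham and at 0, 20.6 and 1.79 TPM in NTY. The MII NTY group rests on replicate 2, which had 106 counts where the other two had 0 and 9.

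Prdx4, the enzyme of the endoplasmic reticulum, was present or absent from library to library. In primordial follicle oocytes it was at 78.8, 0 and 4.50 TPM in sham and at 21.9, 189.5 and 0.0602 TPM in NTY. Its level was 95.5, 0 and 43.2 TPM in primary sham and 0, 0 and 25.5 TPM in primary NTY. Thus 5 of the 12 microdissected libraries had 3 counts or fewer while another had 2832. In MII oocytes it did not pass 33 counts or 4.51 TPM in any library, and its median was 0.272 TPM there against 13.2 TPM in the microdissected libraries, a difference that was not tested either.

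Prdx5, found in mitochondria, peroxisomes and cytosol, was at 42.3 to 98.4 TPM in all 6 MII libraries. In primordial follicle oocytes it was at 10.3, 0 and 0 TPM in sham and at 1.05, 7.91 and 0.0593 TPM in NTY. In primary follicle oocytes it was at 9.41, 28.4 and 13.6 TPM in sham and at 0.353, 0 and 212.3 TPM in NTY. The mean of the primary NTY group, 70.9 ± 122.5 TPM (SD, n = 3), therefore came from replicate 3, which had 3640 counts beside 6 and 0. Of the exon bases of Prdx5, 19.1% lie opposite Trmt112 on the other strand, and the sources used here do not say whether counting used the strand.

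Prdx6, which carries a single reactive cysteine and relies on glutathione rather than thioredoxin, was at 5.57 to 15.1 TPM in the MII libraries. In primordial follicle oocytes it was at 0, 6.50 and 1.04 TPM in sham and at 14.9, 41.6 and 0 TPM in NTY. In primary follicle oocytes the order was turned around, with 12.7, 65.1 and 18.5 TPM in sham and 17.7, 0 and 0.208 TPM in NTY. The groups overlapped at both stages.

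The make-up of the family followed from these levels. Prdx1 made up 91.8 ± 6.53% (SD, n = 3) of the summed peroxiredoxin TPM in primordial sham, 75.7 ± 4.55% in primary sham and 60.1 ± 4.31% in MII sham libraries. In NTY libraries its share was 70.1 ± 29.6% in primordial, 78.5 ± 24.1% in primary and 57.2 ± 6.21% in MII oocytes. Without primordial NTY replicate 3 the primordial NTY share was 55.2%, without replicate 2 it was 84.8%. In the microdissected NTY groups the share was between 40.8% and 99.9%, the lowest in primordial NTY replicate 2, where Prdx4 made up 45.1%, and 51.1% in primary NTY replicate 3, where Prdx5 made up 43.2%. In MII oocytes Prdx2 held 26.4 ± 4.77% in sham and 31.0 ± 6.72% in NTY, and Prdx5 held 11.8 ± 1.94% and 9.16 ± 1.11%. Over those 6 libraries the share of Prdx1 ran from 51.5% to 63.8% and that of Prdx2 from 22.4% to 37.4%.

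**Figure D2:**
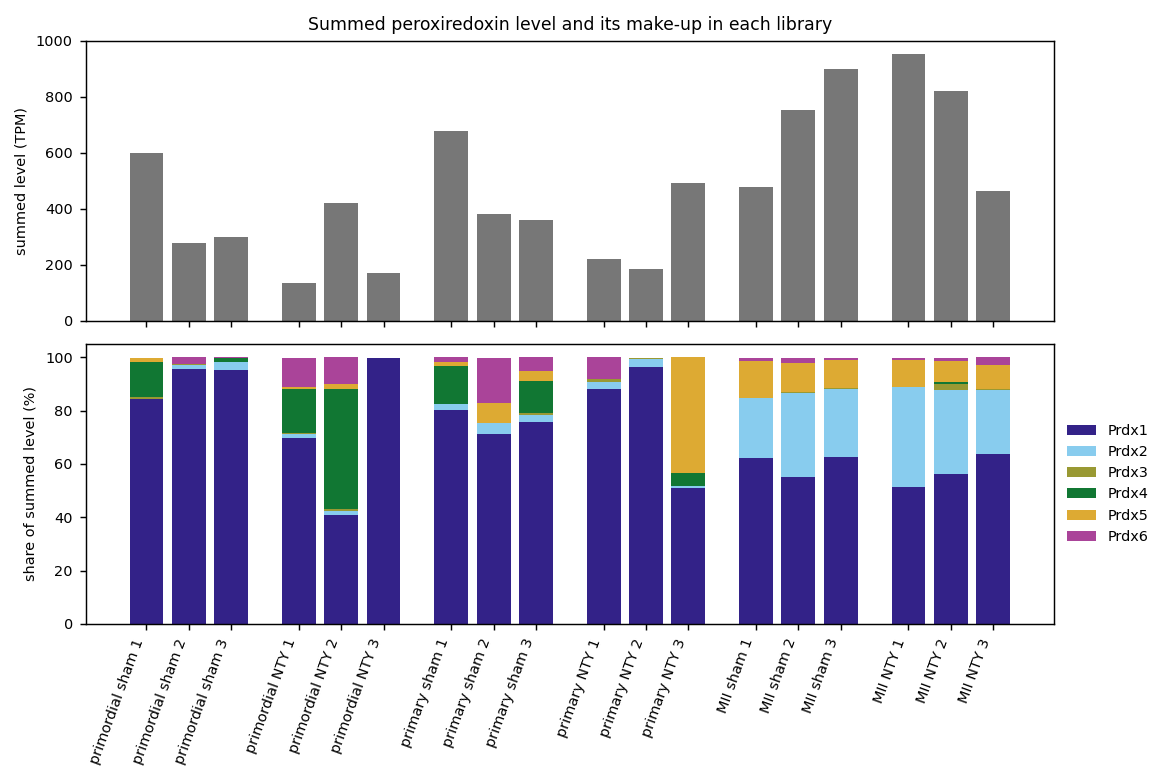
Summed TPM of the 6 peroxiredoxins in each library (upper bars) and the percent of that sum held by each gene (lower stacked bars), by group and replicate on the horizontal axis. Prdx1 takes the most in 17 of the 18 libraries, and Prdx2 and Prdx5 take a part in every MII library. Prdx4 or Prdx5 takes over 40% in 2 NTY libraries of microdissected oocytes.

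Txn1, the small redox protein that hands electrons to the peroxiredoxins, was read at low counts in the microdissected libraries. In primordial follicle oocytes it was at 1.41, 0 and 5.62 TPM in sham and at 2.98, 15.6 and 0 TPM in NTY. Primary follicle oocytes held 5.78, 9.82 and 6.75 TPM in sham and 4.43, 4.13 and 0 TPM in NTY, all 3 below sham. The MII libraries held 5.86, 25.9 and 49.6 TPM in sham and 27.6, 35.3 and 30.6 TPM in NTY. Of the 50-base stretches of its transcripts, 2.5% also occur in the pseudogene Txn-ps1.

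Txnrd1, the selenoprotein that reduces thioredoxin in the cytosol, was at 0, 0.249 and 16.8 TPM in primordial sham and at 14.1, 16.8 and 80.2 TPM in primordial NTY. The single sham library that overlapped with NTY was replicate 3, at 16.81 TPM. The highest NTY value belonged to replicate 3, the library with the lowest sum of oocyte growth genes, 4.17 TPM. Among primary follicle oocytes Txnrd1 was at 2.37, 0.765 and 21.7 TPM in sham and at 56.9, 15.6 and 0.458 TPM in NTY. In MII oocytes it was steady, at 8.0 to 19.2 TPM over all 6 libraries.

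Srxn1, the enzyme that restores overoxidised peroxiredoxins, had 0 counts in all 6 MII libraries. A count of 0 there allows up to 0.301 to 0.347 CPM (counts scaled to the library total; the limit is 3 counts, counting error only). In the microdissected libraries it had 5 counts or fewer in 11 of 12 and 34 counts, 1.504 TPM, in primary NTY replicate 3. It did not pass the filter on low counts in either fit and was not tested.

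In the order of mean TPM, Txnip and Prdx1 held the first 2 places in each of the 6 groups. They exchanged places between groups, and their ranges overlapped in all groups but primary NTY, where every Txnip value (474.2 TPM or more) was above every Prdx1 value (251.1 TPM or less). In MII oocytes Prdx2, Prdx5 and Txn1 came next in this order. Prdx2 overlapped with the gene above it, and there was no overlap from Prdx2 to Prdx5 or from Prdx5 to Txn1. In the microdissected groups most neighbours below the second place overlapped. How evenly a gene was read differed between the sets as well. Of 8282 genes with a mean of at least 100 counts in microdissected libraries, 21.8% had more than 3 counts in every library, and of the 7 genes of this system with that mean 2 did, Prdx1 and Txnip. Of 6870 such genes in MII libraries 98.3% did, and 7 of 7 genes of this system.

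The first question was whether the NTY group differed from sham at each stage. Counts were fitted with edgeR's quasi-likelihood test (Benjamini-Hochberg adjusted p under 0.05 as the threshold), the 12 microdissected libraries together and the 6 MII libraries alone, after a filter on low counts that left 9 and 8 of the 10 genes. In primordial follicle oocytes 0 of 9 passed, where 0.0095% of 10522 genes did. With an unadjusted p under 0.05 there were 0 of 9, against 10.9% of all genes. The median log2 fold change (NTY against sham) was -0.40 over the 9 genes and 0.12 over all genes, with 4 genes above 0 and 5 below.

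By size of p the first was Txnip, with a log2 fold change of -2.28 (SE 1.56, unadjusted p = 0.151, adjusted p = 0.634 by edgeR) in primordial follicle oocytes. Without primordial NTY replicate 3 its log2 fold change was -1.78 (SE 1.43). Txnrd1 followed at 3.14 (SE 2.91, adjusted p = 0.766 by edgeR), which became 1.23 (SE 2.96) without that library and 8.59 without primordial sham replicate 3. Prdx6 was next, at 2.67 (SE 3.09, adjusted p = 0.847 by edgeR). It was at 3.22 without primordial NTY replicate 3, at 1.51 without primordial NTY replicate 2 and at 4.93 without primordial sham replicate 2. None of these 3 differences reached 2 standard errors, which restates their p-values because the SE is derived from the same F value.

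Prdx1, whose primordial NTY libraries lay below sham, had a log2 fold change of -1.09 (SE 1.76, adjusted p = 0.907 by edgeR) there and of -1.71 (SE 1.80) without primordial NTY replicate 3. The ratio of its mean TPM was 2.43 in favour of sham. Groups without overlap, NTY lower, were found in primordial follicle oocytes for 1 of 9 genes in TPM, beside 2.73% of 10502 genes. The separation also held on CPM with TMM library sizes (totals corrected for composition), beside 2.97% of 10522 genes. On that scale Prdx1 was at 461.8, 252.3 and 269.4 in sham and at 84.5, 131.8 and 246.8 in NTY. Marker sums moved between the same groups: the 5 endothelial markers summed to 21.2 to 566 TPM in primordial sham and 0.222 to 5.07 TPM in primordial NTY, the granulosa markers to 381 to 2270 and 2020 to 4000 TPM, the stroma markers to 460 to 3490 and 1260 to 5800 TPM, and the oocyte growth genes to 89.6 to 1200 and 4.17 to 371 TPM. The highest endothelial sum, in primordial sham replicate 1, was at the level of Tek alone (up to 566 TPM), with 3 of the 5 markers at 3 counts or fewer. MII libraries summed to 44.7 to 80.7 TPM on this list, with Pecam1 at 36.8 to 61.7 TPM. The endothelial list was therefore not read as a measure of endothelial RNA. Single markers higher in NTY at an unadjusted p under 0.05 by edgeR were Inha, Gja1 and Hsd17b1 (3 of 13 granulosa markers tested). Csf1r (1 of 1 leukocyte marker tested) was also higher and Tek (1 of 3 endothelial markers) lower, beside 10.9% of all genes. None passed the threshold. Hsd17b1, Csf1r and Tek had 3 counts or fewer in 7, 7 and 9 of the 12 microdissected libraries. The part of all these markers in the values of Prdx1, Txnip and Txnrd1 was not tested.

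In primary follicle oocytes 0 of 9 genes passed the test by edgeR, as 0% of 10522 genes did, and 0 of 9 had an unadjusted p under 0.05, against 8.15% of all. The median log2 fold change was -0.29 over the 9 genes and -0.10 over all genes. Txnip had the smallest p, with a log2 fold change of 1.69 (SE 1.53, adjusted p = 0.973 by edgeR), followed by Txnrd1 at 2.13 (SE 2.79) and Prdx5 at 2.25 (SE 3.10), both with an adjusted p of 1 by edgeR. Single libraries decided these values. Txnip was at 0.98 without primary NTY replicate 2. Txnrd1 was at 0.65 without primary NTY replicate 1 and at 4.54 without primary sham replicate 3. Prdx5 turned to -6.22 without primary NTY replicate 3.

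In TPM, 3 of 9 genes (Prdx1, Prdx2 and Txn1) had all primary NTY libraries below all sham libraries, beside 13.7% of 10502 genes. On CPM with TMM library sizes that held for 1 of 9, Prdx2, beside 11.6%. Prdx1 then overlapped, at 356.7, 270.2 and 204.4 CPM in sham and 208.9, 216.8 and 252.1 CPM in NTY, and its log2 fold change of -0.29 (SE 1.74) turned to 0.08 under RLE normalization and under DESeq2. Its lower TPM in primary NTY therefore depends on the scaling. For Txnip the reverse held, since its groups overlapped in TPM but not on CPM, where it was at 401.1, 238.5 and 192.1 in sham and 527.5, 1623 and 534.8 in NTY. NTY libraries above sham without overlap on that scale were found for 1 of 9 genes, beside 2.27% of all. Marker sums of primary sham and NTY were 412 to 450 and 51.2 to 459 TPM for the oocyte growth genes, 1220 to 3030 and 851 to 2300 TPM for the granulosa markers, 857 to 1940 and 885 to 7490 TPM for the stroma markers, and 0 to 0.198 and 0.2 to 21.7 TPM for the 5 leukocyte markers. Of the single markers, Inhbb, Inhba and Fst (3 of 13 granulosa markers tested) were lower in NTY at an unadjusted p under 0.05 by edgeR. Col1a1 (1 of 6 stroma markers) and Csf1r (1 of 1 leukocyte marker tested) were higher, beside 8.15% of all genes. None passed the threshold. Inhbb, Inhba, Fst and Csf1r had 3 counts or fewer in 5, 8, 5 and 7 of the 12 microdissected libraries. Of the leukocyte markers, Csf1r reached 20.0 TPM in microdissected libraries, where Ptprc, Adgre1 and Cd14 did not pass 0.277, 0.659 and 0.24 TPM. MII libraries summed to 8.2 to 32.5 TPM on that list, so it was not read as a measure of leukocyte RNA. The part of all these markers in the values of Prdx1, Prdx2, Txn1 and Txnip was not tested.

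**Figure D3:**
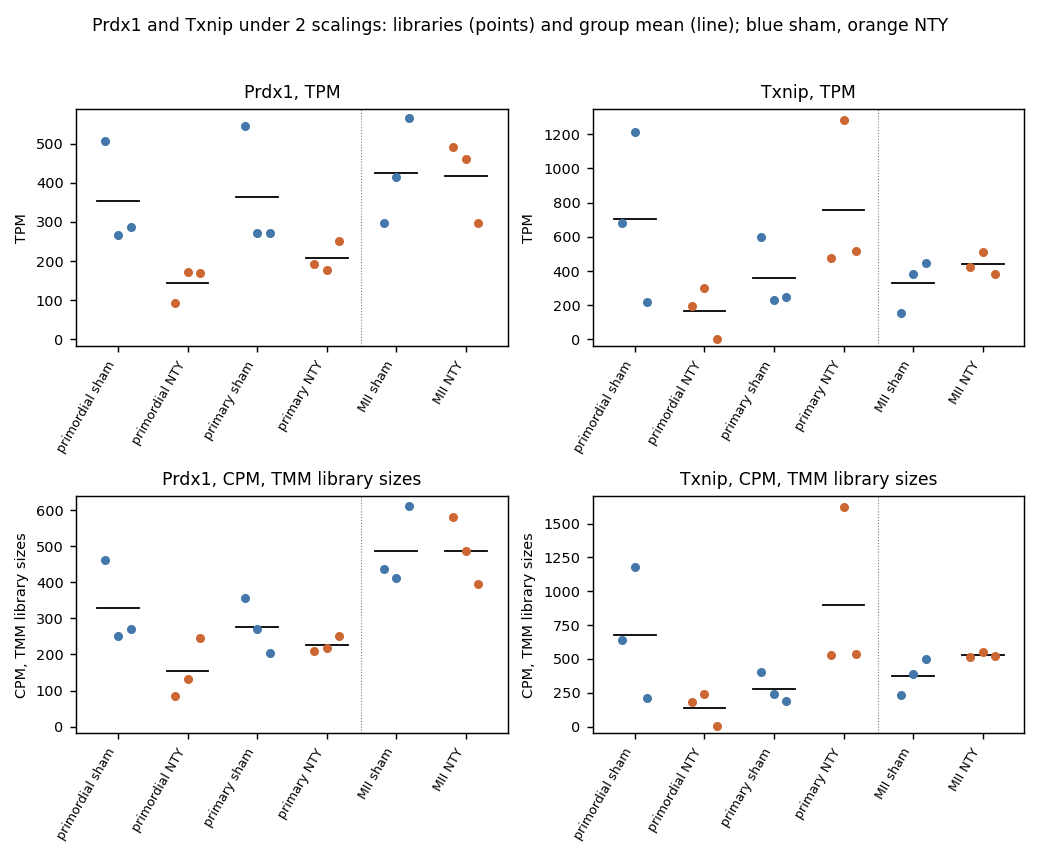
Prdx1 (left) and Txnip (right) in TPM (upper panels) and in CPM with TMM library sizes (lower panels) on the vertical axes, by group, with a point for each library and a line at the group mean. Prdx1 is lower in NTY than in sham without overlap at both microdissected stages in TPM, but overlaps in primary follicle oocytes in CPM, where sham reaches down to 204.4 and NTY up to 252.1.

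In MII oocytes, where the spread between libraries was far smaller, 0 of 8 genes passed the test by edgeR, as 0% of 12209 genes did, and 0 of 8 had an unadjusted p under 0.05, against 2.29% of all. The log2 fold change of Prdx1 was 0.00 (SE 0.28), that of Prdx5 -0.21 (SE 0.37) and that of Txnrd1 -0.15 (SE 0.46). The smallest p belonged to Txnip, with a log2 fold change of 0.51 (SE 0.31, unadjusted p = 0.136, adjusted p = 1.00 by edgeR), then to Prdx2 at 0.40 (SE 0.40) and Prdx3 at 1.64 (SE 1.82). Prdx3 turned to -1.11 without MII NTY replicate 2 and was at 2.51 without MII sham replicate 3. Prdx2 turned to -0.03 without MII NTY replicate 1, and was at 0.71 without MII NTY replicate 3 and 0.22 without MII sham replicate 1. Txnip was at 0.25 without MII sham replicate 1. On CPM with TMM library sizes the MII NTY libraries, at 517.6 to 554.7, lay above the sham libraries, at 230.6 to 496.8, for Txnip, 1 of 8 genes beside 2.63% of all genes, while in TPM they overlapped.

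**Figure D4:**
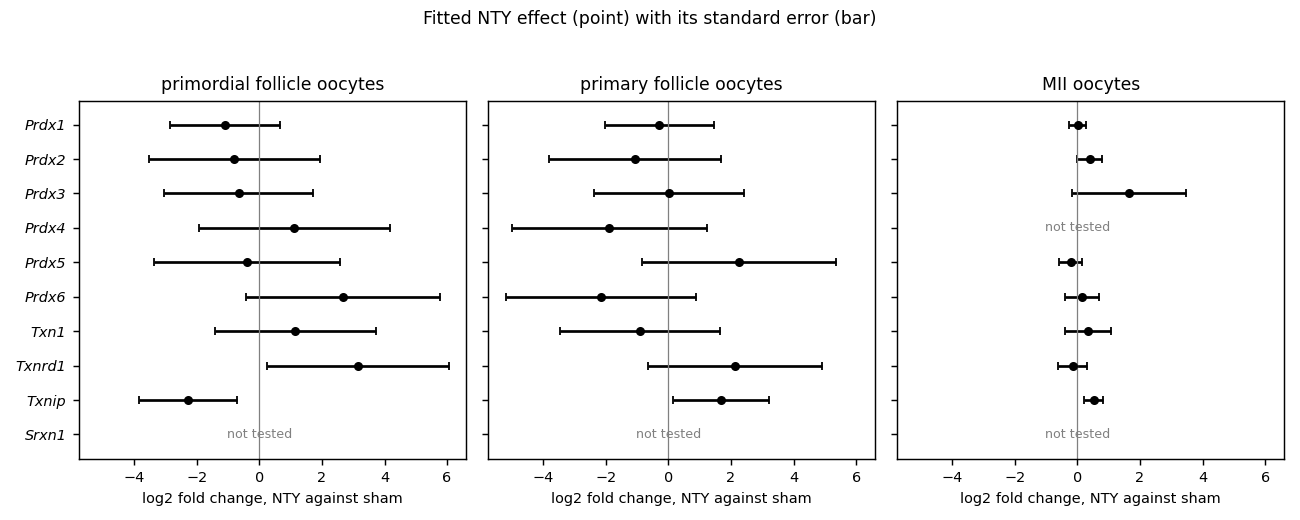
Fitted log2 fold change of NTY against sham (point, horizontal axis) for each gene, in primordial follicle, primary follicle and MII oocytes. The bar is its standard error, derived from the F value of the test. Bars in the microdissected stages reach 1.53 to 3.12 log2 units and those in MII oocytes 0.28 to 1.82, and genes written as not tested did not pass the filter on low counts.

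The second question was whether primary and primordial follicle oocytes differed. These comparisons share their libraries with those of NTY and sham. In sham, 0 of 9 genes passed by edgeR beside 0.0095% of all, and 0 of 9 had an unadjusted p under 0.05 beside 9.28%. The smallest p belonged to Prdx6, with a log2 fold change (primary against primordial) of 3.61 (SE 3.22, adjusted p = 0.968 by edgeR), then to Txnip at -1.29 (SE 1.51) and Prdx5 at 2.25 (SE 3.10). Prdx6 was at 2.23 without primary sham replicate 2 and at 5.86 without primordial sham replicate 2, the library without which Txnip was at -0.72. Prdx5 was at 1.40 without primary sham replicate 2 and at 10.96 without primordial sham replicate 1. In TPM the primary sham libraries lay above all primordial sham libraries for 3 of 9 genes (Prdx2, Prdx6 and Txn1), beside 13.8% of all genes, and on CPM with TMM library sizes for Prdx6, 1 of 9 beside 12.5%. Marker sums in TPM of primordial and primary sham were 89.6 to 1200 and 412 to 450 for oocyte growth genes. They were 1030 to 1330 and 535 to 1140 for early oocyte, 381 to 2270 and 1220 to 3030 for granulosa markers. For stroma markers they were 460 to 3490 and 857 to 1940, for endothelial markers 21.2 to 566 and 0.178 to 14.0. Hsd17b1, 1 of 13 granulosa markers tested, was higher (log2 fold change 6.43, unadjusted p = 0.033 by edgeR). Tek, 1 of 3 endothelial markers, was lower at -15.66 (unadjusted p = 0.00183, adjusted p = 0.473 by edgeR). Tek had 3 counts or fewer in 9 of the 12 microdissected libraries, Hsd17b1 in 7. Pecam1 and Emcn of the endothelial list did not pass 0.399 and 0.157 TPM in the microdissected libraries. Its sums rest on single genes and were again not read as a measure of endothelial RNA. The part of these markers in the values above was not tested.

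In NTY, 0 of 9 genes passed by edgeR beside 0% of all, and 0 of 9 had an unadjusted p under 0.05 beside 9.97%. Txnip came first with a log2 fold change of 2.68 (SE 1.59, unadjusted p = 0.0977, adjusted p = 0.599 by edgeR), and 2.19 (SE 1.46) without primordial NTY replicate 3. Prdx5 followed at 4.90 (SE 3.49), which became -3.57 without primary NTY replicate 3, and Prdx4 at -2.69 (SE 3.22), which became -0.23 without primordial NTY replicate 2 and -12.8 without primary NTY replicate 3. Every primary NTY value of Txnip was above every primordial NTY value in TPM and on CPM, whereas for Prdx1 this was so in TPM only. This made 2 of 9 genes in TPM beside 2.28% of all genes, and 1 of 9 on CPM beside 3.23%. Sums of granulosa markers were 2020 to 4000 TPM in primordial and 851 to 2300 TPM in primary NTY. Those of stroma markers were 1260 to 5800 and 885 to 7490 TPM, those of oocyte growth genes 4.17 to 371 and 51.2 to 459 TPM. Inhbb and Fst (2 of 13 granulosa markers tested) were lower in primary NTY at an unadjusted p under 0.05 by edgeR, none past the threshold. The part of these markers in the values above was not tested.

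The third question was whether the NTY effect differed between primary and primordial follicle oocytes. Again 0 of 9 genes passed by edgeR beside 0.0095% of all, and 0 of 9 had an unadjusted p under 0.05 beside 11.8%. Txnip had the smallest p of all tests of these genes. Its mean TPM in NTY was 4.26 times lower than in sham in primordial follicle oocytes (2.85 times without primordial NTY replicate 3) and 2.11 times higher in primary follicle oocytes, and the difference of the effects was 3.97 on the log2 scale (SE 2.18, unadjusted p = 0.0758, adjusted p = 0.503 by edgeR). Without primordial NTY replicate 3 it was 3.59 (SE 1.90). Over 21 alternative fits the adjusted p ran from 0.169 to 0.933 and the difference from 3.34 to 4.96. Prdx6 followed at -4.84 (SE 4.33) and was at -10.8 without primary NTY replicate 1. Prdx4 was at -3.01 (SE 4.37), at -0.57 without primordial NTY replicate 2, at -6.48 without primordial sham replicate 1 and at -13.2 without primary NTY replicate 3. Of 13 granulosa markers tested, 4 (Inha, Inhbb, Hsd17b1 and Fst) had a negative difference at an unadjusted p under 0.05 by edgeR. None had a positive one, and none passed the threshold. The median difference was -4.75 over the granulosa markers, 1.78 over the oocyte growth genes and -0.557 over all genes. The part of these markers in the values of Txnip was not tested.

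After the values of Prdx1 had been seen, NTY was also compared with sham averaged over both microdissected stages. Here 0 of 9 genes passed by edgeR beside 0.0095% of all, and 0 of 9 had an unadjusted p under 0.05 beside 11%. Txnrd1 came first at a log2 fold change of 2.63 (SE 2.01, unadjusted p = 0.197, adjusted p = 0.713 by edgeR), and was at 1.74 without primordial NTY replicate 3 and 5.36 without primordial sham replicate 3. Prdx1 was at -0.69 (SE 1.24, adjusted p = 0.947 by edgeR) and -0.42 without primordial sham replicate 1. Prdx2 was at -0.93 (SE 1.94), and leaving out single libraries moved it between -1.57 (without primordial NTY replicate 2) and -0.56 (without primordial sham replicate 3), with -0.62 without primordial NTY replicate 3. Of 10502 genes, 0.314% had NTY below sham without overlap at both stages in TPM, Prdx1 among them, and 0.285% of 10522 did on CPM, where Prdx1 was not.

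Other genes of the same chemistry were read from lists fixed for this report. Of 28 thioredoxin-linked genes (further thioredoxins and reductases, glutaredoxins, methionine sulfoxide reductases, sestrins and thioredoxin substrates) 23 were tested in microdissected and 21 in MII libraries, and 0 passed by edgeR in any of the 7 comparisons. With an unadjusted p under 0.05, 1 was higher (Nxn, nucleoredoxin) and 1 lower (Msrb1, a selenoprotein that repairs oxidised methionine) in NTY in primordial follicle oocytes, 0 in primary follicle oocytes and 0 in MII oocytes. These 2 of 23 stand beside 10.9% of all genes in primordial follicle oocytes. The log2 fold change there was 8.73 for Nxn and -12.16 for Msrb1, with adjusted p = 0.409 and 0.405 by edgeR. Nxn had 3 counts or fewer in 4 of the 12 microdissected libraries and Msrb1 in 9. The value of Msrb1 thus rests on few libraries, and fits without single libraries are not given for these genes. Between the stages, 1 of 23 was higher in primary sham (Nxn, 9.22, beside 9.28% of all genes) and 1 of 23 lower in primary NTY (Glrx5, a mitochondrial glutaredoxin, -7.90, beside 9.97%). Nxn and Msrb1 were also the 2 of 23 in the averaged comparison, beside 11%. The most abundant of them in MII oocytes were Glrx, the cytosolic glutaredoxin, at a median of 199 TPM, P4hb, the protein disulfide isomerase of the endoplasmic reticulum, at 152 TPM and Rrm2, a subunit of the ribonucleotide reductase that thioredoxin and glutaredoxin serve, at 137 TPM. Glrx was at a median of 0.115 TPM in microdissected libraries. The mitochondrial Txn2 had a median of 34.7 TPM in MII and 1.73 TPM in microdissected libraries, and its reductase Txnrd2 a median of 0 TPM in both.

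Of the 7 genes listed for NADPH supply, pentose phosphate enzymes among them, 8 identifiers were tested in microdissected libraries because Nnt has 2. In MII libraries 6 were tested. By edgeR 0 passed in any of the 7 comparisons. With an unadjusted p under 0.05, Taldo1, an enzyme of the pentose phosphate pathway, was the only one, at a log2 fold change of -6.95 for NTY against sham in primordial follicle oocytes (adjusted p = 0.438 by edgeR), 1 of 8 beside 10.9% of all genes. Taldo1 had 3 counts or fewer in 2 of the 12 microdissected libraries. The most abundant of the listed genes in MII oocytes were Taldo1 at a median of 227 TPM, Me1, malic enzyme, at 135 TPM and G6pdx, the first enzyme of the pentose phosphate pathway, at 123 TPM. The summed level of the list, in which Nnt counts under only 1 of its identifiers, was 414 to 847 TPM in MII libraries. In microdissected libraries it was 69.9 to 850 TPM, lowest in primordial NTY replicate 3. Taldo1 and Tkt do not make NADPH themselves, so this sum was not read as a level of NADPH-producing enzymes.

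The genes with the most similar pattern over the 18 libraries were sought for the 3 genes of highest mean TPM among 7810 genes, by Pearson correlation of log2(TPM + 1). For Txnip these were Psme4 (r = 0.915) and Fip1l1 (r = 0.903), for Prdx1 they were Insig1 (r = 0.842) and Zbtb10 (r = 0.822), and for Prdx2 they were Dbndd1 (r = 0.969) and Cenpe (r = 0.962). The libraries share stage and method within their sets, and the Prdx2 values fall into a low microdissected and a high MII cluster, so these are descriptions of the ranking and not tests.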

How the data were processed

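The submitters' processing notes name Trim Galore 0.4.1, TopHat2, featureCounts and mm10; how multimapping reads and strand were handled is not given in the sources used here. The authors deposited whole-number counts per gene, not normalized, and TPM values for part of the genes. The lengths implied by the TPM values were within 1% of GENCODE M21 exon lengths for 93.6% of 8969 genes. From the counts, edgeR 4.0.16 (R 4.3.3) was run with TMM, the filterByExpr filter, robust quasi-likelihood and no replicate block. The TMM factors ran from 0.618 to 1.4. Alternatives were RLE normalization, DESeq2 1.42.0, voom with quality weights and limma on log2(TPM + 1) or log2(TPM + 0.1) (limma 3.58.1), a replicate block, other filters (any count, or 10 counts in every library), a fit of only the compared groups, primary NTY replicates 2 and 3 added together (library codes 2E and 2E2), and leaving out each library. The labels do not say whether 2E and 2E2 came from the same material, so primary NTY may hold fewer than 3 independent libraries. The fits were also run on simulated counts with the same spread for all genes, unlike these data, and this is not used as support. For each comparison, statistics are given for genes of the system that passed the threshold and otherwise for the 3 with the smallest p. In comparisons of NTY with sham they are also given for Prdx1, chosen after its values were seen. In MII oocytes Prdx5 and Txnrd1 were added outside this rule. Levels, shares and motifs were computed with Python 3.11.15, numpy 2.4.6 and pandas 2.3.3. Sequences shared with pseudogenes were counted as stretches of 50 bases: 8.29% of those of Prdx1 and 4.53% of those of Prdx2 occur in other genes. Of exon bases, 19.4% of those of Txnip lie opposite Gm15441, and 5.67% and 5.8% of those of Prdx2 opposite Junb and Rnaseh2a. The genes, lists and comparisons were chosen with earlier results of these data known. Protein sequences are not used here.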

Additional observations from a re-analysis of the deposited data

How the results depend on the processing

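None of the genes of the system that an alternative fit tested, 2 to 10 of them, was called in any of 118 such fits, and with an unadjusted p under 0.05 at most 1 of them appeared in a fit, in 16 fits. Of 342 alternative log2 fold changes of the 3 genes with the smallest p in each comparison, 332 kept their direction and 10 turned. In primary follicle oocytes (NTY against sham) Prdx5 turned to -2.87 in limma on log2(TPM + 0.1), -1.32 on log2(TPM + 1) and -2.14 with voom, and ran from -6.22 to 3.11 when libraries were left out. In MII oocytes Prdx3 turned to -0.0876 in limma on log2(TPM + 0.1), -0.429 with voom and -0.18 with the replicate block, and ran from -1.11 to 2.51 when libraries were left out, and Prdx2 from -0.0291 to 0.707. Prdx5 in primary against primordial follicle oocytes in NTY ran from -3.57 to 7.07.

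The number of genes called among all tested, which the values of these genes are read against, moved with the method, and the cause was not tested. For NTY against sham in primordial follicle oocytes it was 1, with 1201 by DESeq2, 6 in a fit of only the groups compared, 2 with RLE, 0 with voom and 0 with at least 10 counts in every library, and 0 to 3 when libraries were left out (0 without primordial NTY replicate 3). In primary follicle oocytes it was 0, with 693 by DESeq2, 67 with voom and 3 with limma on either log2(TPM) scale, and in MII oocytes 0, with 29 by DESeq2. For primary against primordial follicle oocytes in sham it was 1, with 767 by DESeq2, 143 with voom, 4 with limma on either log2(TPM) scale and 0 with a filter on any count, with at least 10 counts or with only the groups compared, and 0 to 2 when libraries were left out. In NTY it was 0, with 1121 by DESeq2 and 2 with voom. For the difference of the NTY effect it was 1, with 1216 by DESeq2, 23 with voom, 11 with a filter on any count, 0 with at least 10 counts and 0 with primary NTY replicates 2 and 3 summed, and 0 to 8 when libraries were left out. For NTY against sham averaged over both stages it was 1, with 1083 by DESeq2, 13 with a filter on any count, 10 with RLE, 5 with those replicates summed, 4 with voom, 2 with the replicate block and 0 with at least 10 counts, and 0 to 8 when libraries were left out. Libraries with the same replicate number did not deviate together (correlations of -0.0639 to 0.0657 over 21 pairs). The replicate block changed the number of genes called in no other comparison. The summed peroxiredoxin level of primordial NTY, 242 TPM, was 152 TPM without replicate 2, and that of primary NTY, 298 TPM, was 201 TPM without replicate 3. A limit of 10 counts in place of 3 left the number of genes at or under it in at least 1 library within 1.5 times in all 6 groups. The standard errors of 1.51 to 3.49 log2 units of the group comparisons in microdissected libraries limit what these libraries can show.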
